A study of Homo sapiens with 15 samples.

Results

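A set of 10 genes used to describe epithelial and mesenchymal cell states and the guidance of growing cells were followed across the conditions of an RNA-seq experiment on cisplatin resistance. They are CDH1, CDH2, EPCAM, VIM, FN1, ZEB1, ZEB2, SNAI2, MAP1B and SEMA3E, 10 of the 47634 genes listed for every library. The set was put together because the read counts of CDH2, MAP1B and SEMA3E fell with cisplatin in these libraries, that is, these 3 members were chosen by their counts in the untreated and cisplatin libraries. The change from untreated to cisplatin-treated cells is therefore given for all 10 as a description and without a test. The cells were IGROV-CP20, an established human ovarian cancer line that tolerates cisplatin, and all libraries came from this 1 line. Cells were left untreated, given 50 µM cisplatin for 24 h, or first exposed to a drug at 10 µM (Tranilast, Telmisartan or Amphotericin B) during 24 h before the same cisplatin treatment, with 3 libraries labelled as biological replicates for each of the 5 conditions. Every drug library therefore also received cisplatin, and a drug given without cisplatin was not analysed here. The labels do not say whether the replicates came from separate cultures, so a p-value measures only the spread between these libraries. Expression was measured by QuantSeq, which sequences the 3′ ends of messenger RNAs, and levels are given as CPM (read counts relative to the library's scaled total) after scaling the libraries by TMM, the trimmed mean of M-values.

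Cadherins are transmembrane proteins that hold neighbouring cells together through calcium-dependent contacts. E-cadherin, the product of CDH1, is typical of epithelia, and N-cadherin, the product of CDH2, of mesenchymal and neural cells. In an epithelial to mesenchymal transition, transcription factors of the ZEB and SNAI families bind E-box letters at promoters such as that of CDH1 and repress it, while vimentin, fibronectin and N-cadherin become more abundant. Semaphorins are guidance cues that steer axons, endothelial cells and tumour cells through plexin receptors, and MAP1B binds microtubules in growing neurites.

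Promoter sequences are shown for the 3 genes whose fall chose the set and for ZEB1, the only one of the members found there whose window held the letters CACCTG. They come from RefSeq on GRCh38.p14, run 5′ to 3′ from 250 bases before the gene's start to 50 bases after it, and were found for 7 members, CDH2, VIM, FN1, ZEB1, ZEB2, MAP1B and SEMA3E. Capitals mark each match to CANNTG, the general E-box, of which CACCTG and its reverse complement CAGGTG are a special case that ZEB and SNAI factors are known to bind.
CDH2 (chr18:28177081-28177380, minus strand): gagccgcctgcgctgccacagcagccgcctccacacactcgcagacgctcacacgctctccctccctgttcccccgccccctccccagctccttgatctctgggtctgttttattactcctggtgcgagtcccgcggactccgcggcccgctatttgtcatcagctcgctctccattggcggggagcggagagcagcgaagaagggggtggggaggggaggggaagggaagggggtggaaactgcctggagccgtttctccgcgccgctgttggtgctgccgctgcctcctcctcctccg
MAP1B (chr5:72107225-72107524, plus strand): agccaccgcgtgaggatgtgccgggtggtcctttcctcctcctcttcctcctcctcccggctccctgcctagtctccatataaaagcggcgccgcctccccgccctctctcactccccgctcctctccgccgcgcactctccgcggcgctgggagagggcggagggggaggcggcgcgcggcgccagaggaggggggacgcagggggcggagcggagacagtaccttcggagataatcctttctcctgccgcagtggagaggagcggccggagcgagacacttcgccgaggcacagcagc
SEMA3E (chr7:83649090-83649389, minus strand): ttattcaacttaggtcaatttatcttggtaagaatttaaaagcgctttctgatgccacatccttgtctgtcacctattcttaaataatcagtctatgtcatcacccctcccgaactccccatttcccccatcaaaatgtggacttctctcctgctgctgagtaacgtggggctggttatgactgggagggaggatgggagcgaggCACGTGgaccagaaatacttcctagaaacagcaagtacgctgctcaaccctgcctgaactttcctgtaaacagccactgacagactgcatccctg
ZEB1 (chr10:31318167-31318466, plus strand): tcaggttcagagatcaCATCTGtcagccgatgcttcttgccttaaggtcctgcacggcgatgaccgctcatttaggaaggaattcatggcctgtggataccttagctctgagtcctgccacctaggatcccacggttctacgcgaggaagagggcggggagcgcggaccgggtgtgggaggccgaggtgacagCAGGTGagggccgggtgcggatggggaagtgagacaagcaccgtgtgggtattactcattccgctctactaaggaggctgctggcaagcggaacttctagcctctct
Among all 35116 promoters of this length, 20.6% held CACCTG on either strand and 68.7% held CANNTG. The windows of CDH2 and MAP1B held neither, and so did those of VIM and FN1. SEMA3E had 1 CANNTG match, which began 45 bases before the start, and ZEB2 had 1 that began 180 bases before it. ZEB1 had 2 CANNTG matches, and the one that began 57 bases before the start was CAGGTG. The CDH2 and MAP1B windows were 67.0% and 70.0% G or C, that of SEMA3E was 47.3%, and the median of all promoters was 58.7%. A match is only a description of letters in the window.

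Libraries held 1510620 to 3517041 reads assigned to genes, and the Amphotericin B libraries were the shallowest, at 1510620 to 1872639. Cisplatin library 1 and Telmisartan library 3 stood apart from the other libraries of their condition. Cisplatin library 1 had 13.71% of its reads on mitochondrial ribosomal RNA, against 5.61% and 3.41% in cisplatin libraries 2 and 3, and Telmisartan library 3 had 3.61%, against 10.81% and 12.91% in the other two. This share was 1.79 to 2.20% in untreated, 2.10 to 2.53% in Tranilast and 12.3 to 14.8% in Amphotericin B libraries. Of 8 ovarian carcinoma markers, KRT8 and KRT18 were expressed, at a summed marker level of 100 to 223 CPM, while PAX8, WT1, KRT7, MSLN and FOLR1 had at most 3 reads in any library. The endothelial markers CDH5 and VWF were at 0 in all libraries. Of 6 fibroblast markers 3 had at most 3 reads in any library, and COL1A1 alone passed the filter on low counts. The fibroblast list summed to 7.97 to 10.1 CPM in untreated and 15.3 to 42.1 CPM in cisplatin-treated libraries. Among leukocyte markers CD3E and ITGAM were at 0, and PTPRC alone passed the filter. The leukocyte list summed to 64.7 to 75.6 CPM in untreated and 4.37 to 22.6 CPM in cisplatin-treated libraries.

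N-cadherin transcripts were lower with cisplatin than without it, while those of E-cadherin, which were sparse, were higher. CDH2 was at 78.1, 69.1 and 82.0 CPM in the 3 untreated libraries and at 14.6, 3.92 and 2.78 CPM in the cisplatin libraries. Tranilast libraries had 8.93, 13.6 and 11.7 CPM, Telmisartan libraries 10.2, 8.84 and 3.58 CPM, and Amphotericin B libraries 14.2, 14.4 and 14.2 CPM. All 12 cisplatin-treated libraries thus lay below all 3 untreated ones, and the fitted level was 11.3-fold lower with cisplatin alone than without it (log2 fold change -3.50, standard error 0.409). Without cisplatin library 1, whose CDH2 level was the highest of its condition, the difference was -4.53, and without cisplatin library 3, the lowest, it was -3.08. The 3 cisplatin libraries held only 26, 8 and 7 CDH2 reads. CDH1 was at 1.59, 2.59 and 2.55 CPM in untreated libraries and at 9.52, 7.85 and 8.34 CPM with cisplatin, that is, 1.89 higher on the log2 scale (standard error 0.383) on totals of 24 and 54 reads. Its Tranilast levels were 6.70, 3.27 and 6.09 CPM, its Telmisartan levels 6.63, 7.18 and 4.40 CPM, and its Amphotericin B levels 10.7, 7.22 and 8.20 CPM. Again no cisplatin-treated library overlapped the untreated ones. In bulk RNA, fewer cells with a transcript and less of it per cell cannot be told apart. Between untreated and cisplatin libraries CDH2, MAP1B and SEMA3E did not overlap, as their choice fixed, and among the other 5 members that passed the filter on low counts EPCAM, VIM and ZEB1 were lower without overlap, CDH1 was higher without overlap and FN1 overlapped. Of all 11113 genes tested 29.5% were lower and 24% higher without overlap, and 44.7% passed an adjusted p under 0.05 by edgeR's quasi-likelihood test, the threshold used throughout, 23.6% lower and 21.1% higher, so nothing is read from the members' count.

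**Figure D1:**
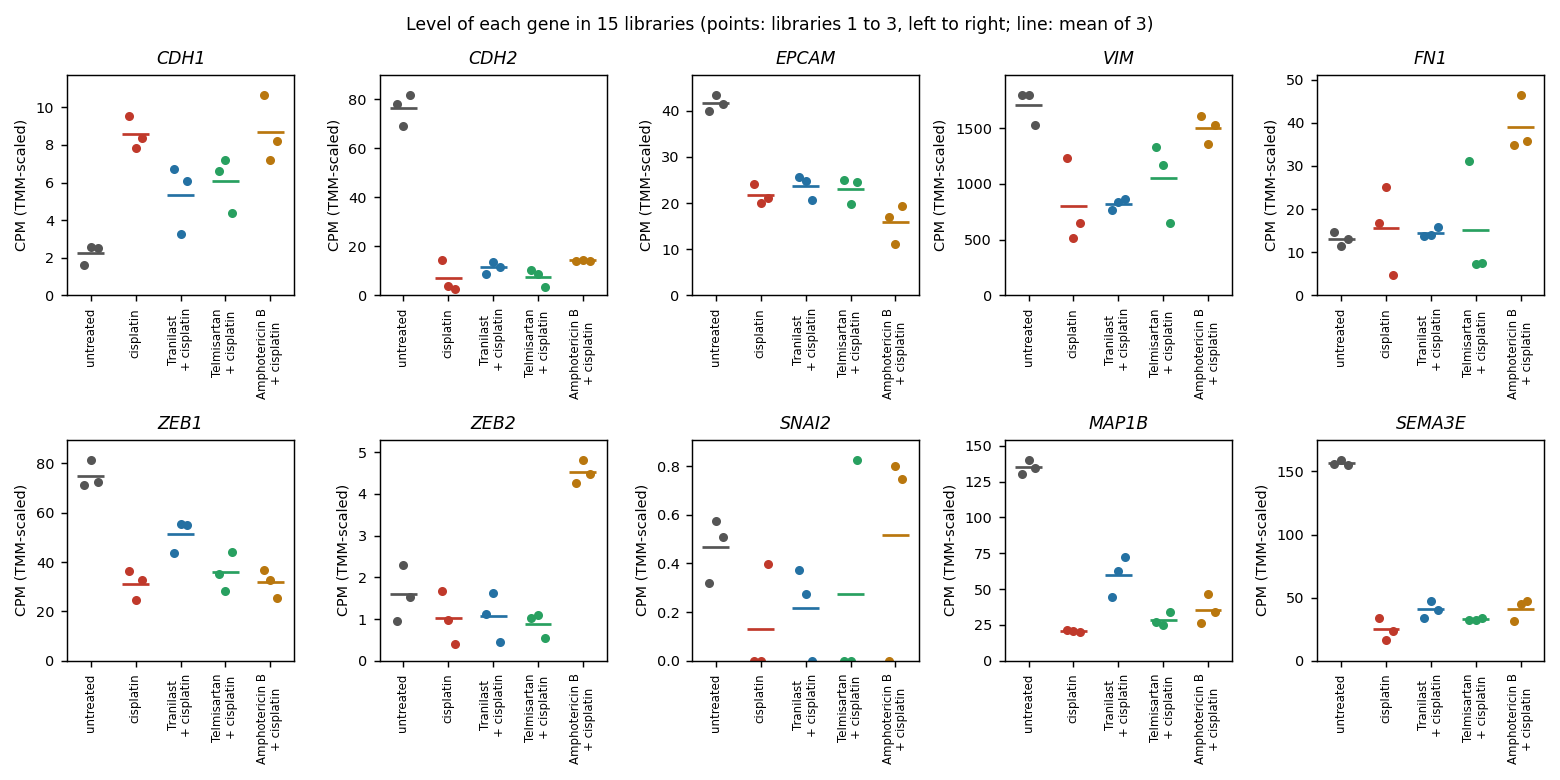
Level in CPM after TMM scaling (linear vertical axes from 0, a separate scale per gene) of the 10 genes in the 15 libraries, as points for libraries 1 to 3 and a line for the mean of each condition. CDH2, MAP1B and SEMA3E sit far lower in all cisplatin-treated libraries than in the untreated ones, CDH1 sits higher, and VIM in Amphotericin B libraries overlaps the untreated level.

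The balance of both cadherins was compared within each library, where scaling cancels, as the log2 ratio of CDH2 to CDH1 reads after adding 0.5 to each count. Reads of this assay come from the 3′ end of a transcript, so the ratio was not divided by transcript length and serves only to compare libraries. It was 5.48, 4.66 and 4.94 in untreated libraries, a mean of 5.03 ± 0.416 (SD, n = 3). Cisplatin libraries gave 0.60, -0.96 and -1.52, so CDH1 reads outnumbered CDH2 reads in 2 of the 3. Tranilast libraries gave 0.41, 2.01 and 0.93, Telmisartan libraries 0.60, 0.29 and -0.29, and Amphotericin B libraries 0.40, 0.96 and 0.76. The means were -0.63 ± 1.1 for cisplatin alone and 1.12 ± 0.82, 0.20 ± 0.453 and 0.71 ± 0.283 in the same order of drugs (SD, n = 3). The range of the cisplatin libraries overlapped that of each drug, but only through cisplatin library 1, without which the cisplatin mean was -1.24 and no drug library lay as low. Without cisplatin library 3 the cisplatin mean was -0.18.

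**Figure D2:**
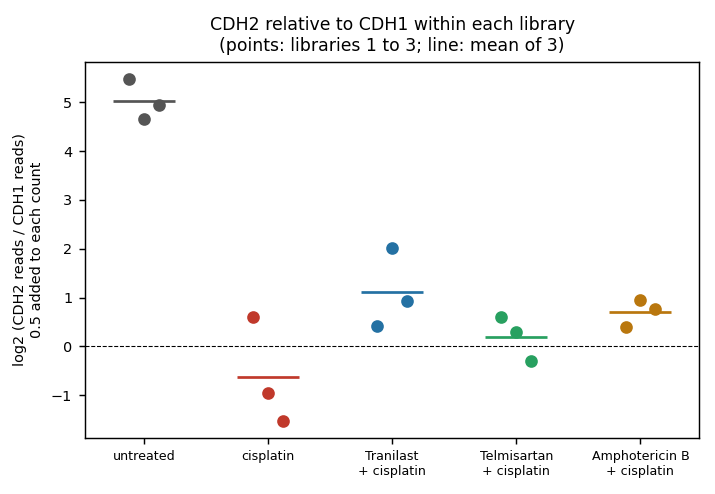
Log2 ratio of CDH2 to CDH1 reads in each library (vertical axis; 0, dashed, means equal reads), with 0.5 added to each count and a line at the mean of 3 libraries per condition. Untreated libraries lie between 4.66 and 5.48 and cisplatin-treated libraries between -1.52 and 2.01.

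In the drug conditions CDH1 was described against untreated cells and tested against cisplatin alone. With 5, 9 and 10 reads in untreated libraries, the gene passed the filter on low counts only through the cisplatin-treated libraries, where it was higher, so the comparison with untreated cells gives no fair test and no p is given. The log2 fold change over untreated cells was 1.92 with Amphotericin B (standard error 0.406), 1.36 with Telmisartan (standard error 0.397) and 1.21 with Tranilast (standard error 0.382). In a fit added after the data were seen, which takes the mitochondrial share as a covariate, these values were 1.19, 0.84 and 1.17. Against cisplatin alone CDH1 did not pass the threshold with any drug, the Tranilast value being -0.68 (95% interval -1.40 to 0.04, adjusted p = 0.159), the Telmisartan value -0.54 (adjusted p = 0.645) and the Amphotericin B value 0.03 (adjusted p = 0.963). The Tranilast and the Telmisartan libraries nonetheless all lay below those with cisplatin alone. CDH2, described without a test, was higher than with cisplatin alone by 0.78 (Tranilast), 0.07 (Telmisartan) and 1.08 (Amphotericin B) on the log2 scale, and in all 3 comparisons the libraries overlapped. Without cisplatin library 1 these differences were 1.81, 1.1 and 2.14, and without cisplatin library 3 they were 0.36, -0.36 and 0.65. Between drugs, in comparisons of groups that did not choose the set, although the fit takes its spread from all 15 libraries, CDH2 did not pass the threshold, with 0.70 for Tranilast over Telmisartan (95% interval -0.20 to 1.60, adjusted p = 0.339, and 2.39 with adjusted p = 0.00352 in the fit with the mitochondrial share), -0.31 for Tranilast over Amphotericin B (adjusted p = 0.592) and -1.01 for Telmisartan over Amphotericin B (95% interval -1.98 to -0.04, adjusted p = 0.227).

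EPCAM, which encodes an epithelial adhesion molecule, did not follow CDH1. It was at 39.9, 43.5 and 41.5 CPM in untreated libraries, and 24.1, 20.1 and 21.1 CPM with cisplatin. The levels were 25.7, 24.8 and 20.8 CPM in Tranilast libraries, 25.01, 19.9 and 24.5 CPM in Telmisartan libraries, and 17.1, 11.2 and 19.4 CPM in Amphotericin B libraries. Every cisplatin-treated library was below every untreated one, and the log2 fold change with cisplatin alone was -0.94 (standard error 0.209). The fall from untreated passed the test with Tranilast (-0.81, adjusted p = 0.0166), Telmisartan (-0.84, adjusted p = 0.00594) and Amphotericin B (-1.38, adjusted p = 0.000244), in comparisons where 8.1%, 28.7% and 40.9% of all genes passed. Only the Tranilast call depended on single libraries, since it was lost without any of the untreated or Tranilast libraries, at adjusted p from 0.0531 to 0.0956. It was also lost with scaling by library size alone and without the filter, at adjusted p of at most 0.115. Against cisplatin alone EPCAM differed by 0.13 (Tranilast), 0.10 (Telmisartan) and -0.44 (Amphotericin B), none past the threshold (adjusted p = 0.703, 0.920 and 0.215). The Amphotericin B libraries were nonetheless all below those with cisplatin alone, as were the libraries of 13.8% of all genes.

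VIM, which encodes the intermediate filament protein vimentin, was the most abundant of the 10. Untreated libraries had 1798, 1800 and 1527 CPM, and cisplatin libraries had 1236, 514 and 654 CPM, which is 1.09 less on the log2 scale (log2 fold change -1.09, standard error 0.288). Tranilast libraries had 766, 836 and 864 CPM, Telmisartan libraries 1332, 1169 and 651 CPM, and Amphotericin B libraries 1610, 1359 and 1532 CPM. The Amphotericin B libraries thus overlapped the untreated ones and lay above all libraries with cisplatin alone. VIM rose by 0.91 on the log2 scale with Amphotericin B over cisplatin alone (standard error 0.288, adjusted p = 0.0445), in a comparison where 13.2% of genes passed. This call was lost in 13 of 23 alternative settings, among them leaving out any untreated, Tranilast or Amphotericin B library or cisplatin library 2 or 3, at adjusted p from 0.0599 to 0.204, while without cisplatin library 1 the value was 1.40 (adjusted p = 0.000688). The difference between Amphotericin B and untreated cells was -0.19 (95% interval -0.78 to 0.41, adjusted p = 0.625), and it passed with scaling by library size alone, at -0.75 (adjusted p = 0.00528). With Tranilast VIM fell from untreated by 1.06 on the log2 scale (adjusted p = 0.0292), a call lost without any of the untreated or Tranilast libraries (adjusted p from 0.0632 to 0.145), and with Telmisartan the value was -0.70 (adjusted p = 0.0721), which passed in 6 of 23 alternatives, such as library size alone (-1.03, adjusted p = 0.00134) and without cisplatin library 1 (-0.67, adjusted p = 0.0241). Compared directly, Tranilast libraries had less VIM than Amphotericin B libraries by 0.87 (log2 fold change -0.87, adjusted p = 0.0258, background 36% of genes), a call lost without any Tranilast library or Amphotericin B library 1 or 3 (adjusted p from 0.0618 to 0.0829) and with scaling by library size alone.

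The share of mitochondrial ribosomal RNA moved with VIM among cisplatin-treated libraries. In the 6 libraries where that share was over 10%, namely cisplatin library 1, Telmisartan libraries 1 and 2 and all 3 Amphotericin B libraries, VIM was at 1169 to 1610 CPM. In the other 6 it was at 514 to 864 CPM, with no overlap. The same division held inside the cisplatin condition and inside the Telmisartan condition. CDH2 was at 8.84 to 14.6 CPM in the first 6 libraries and at 2.78 to 13.6 CPM in the others, where the 3 Tranilast libraries had 8.93 CPM or more and the other 3 had 3.92 CPM or less. Untreated libraries, with shares as low as those of Tranilast libraries, had more VIM and CDH2 than any of those other 6. With the log2 share as a covariate VIM with Amphotericin B over cisplatin alone was 0.43 (adjusted p = 0.145), and Tranilast over Amphotericin B turned to 0.43 (adjusted p = 0.585). Since no Tranilast library and Amphotericin B library had similar shares, the share and the drug cannot be told apart in that comparison. In the same fit VIM was lower than in untreated cells by 1.57 with Amphotericin B (log2 fold change -1.57, adjusted p = 0.000296) and by 1.75 with Telmisartan (-1.75, adjusted p = 1.83e-06), and higher with Tranilast than with cisplatin alone (0.86, adjusted p = 0.00394), and the untested difference between cisplatin and untreated cells was -2.00. The slope of this covariate comes mainly from the cisplatin and Telmisartan libraries, in which the share varied. All untreated and Tranilast libraries had lower shares than every cisplatin, Telmisartan and Amphotericin B library. In comparisons between these sets the share and the treatment cannot be told apart, for VIM or any other gene. The values and adjusted p of this fit therefore decide nothing there.

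**Figure D3:**
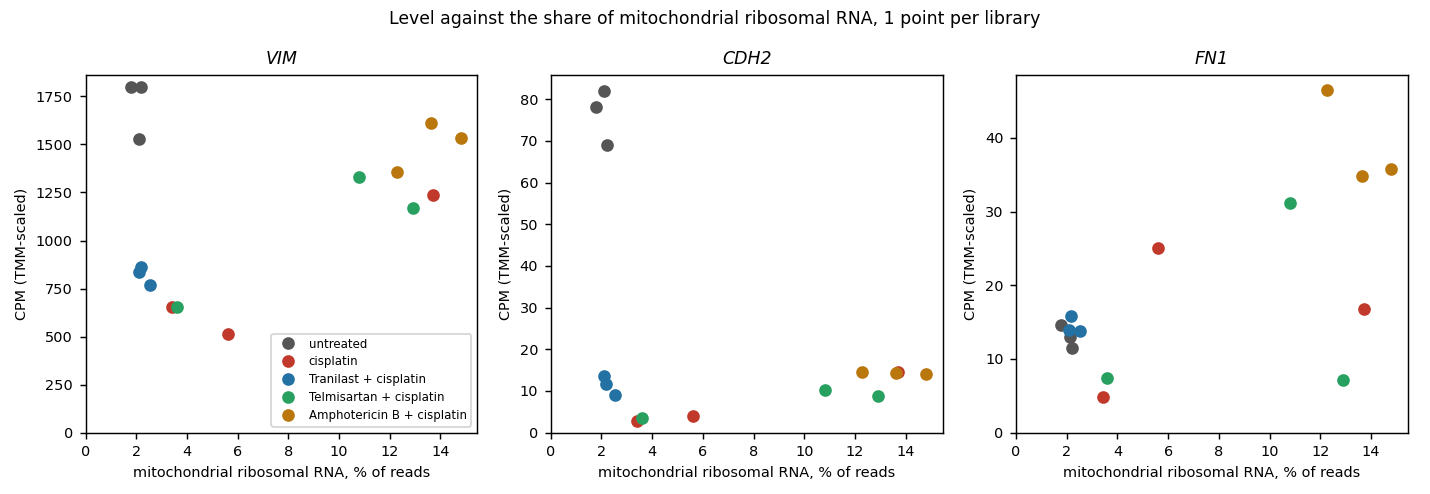
Level in CPM (vertical axes from 0) of VIM, CDH2 and FN1 against the percentage of reads on mitochondrial ribosomal RNA (horizontal axis), with a point for each of the 15 libraries. Among cisplatin-treated libraries those over 10% have 1169 to 1610 CPM of VIM and those under 10% have 514 to 864 CPM.

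FN1, which encodes the matrix protein fibronectin, did not move with vimentin under cisplatin alone. It was at 14.7, 11.5 and 12.98 CPM in untreated libraries and at 16.8, 25.02 and 4.77 CPM with cisplatin, so the cisplatin libraries spanned the untreated ones (log2 fold change 0.22, standard error 0.491). Tranilast libraries had 13.8, 13.9 and 15.8 CPM, and Telmisartan libraries 31.1, 7.18 and 7.43 CPM. Amphotericin B libraries had 34.8, 46.5 and 35.8 CPM, more than any other library. FN1 rose with Amphotericin B by 1.58 over untreated cells (standard error 0.474, adjusted p = 0.0132) and was lower with Tranilast than with Amphotericin B (-1.42, standard error 0.469, adjusted p = 0.0258). The latter call was lost without any of the 6 libraries compared, at adjusted p from 0.0526 to 0.0803. Both calls were lost with scaling by library size alone, at 1.02 (adjusted p = 0.0801) and -0.77 (adjusted p = 0.169), and with the mitochondrial share as a covariate, at 0.09 (adjusted p = 0.953) and -0.01 (adjusted p = 0.996). Against cisplatin alone the Amphotericin B value was 1.35 (95% interval 0.33 to 2.38, adjusted p = 0.0700), which missed the threshold but passed it without cisplatin library 1, at 1.48 (adjusted p = 0.0382). Tranilast and Telmisartan differed from cisplatin alone by -0.07 and -0.04 (adjusted p = 0.938 and 0.987).

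Of the transcription factors, ZEB1 was the only member measured well. It was at 71.1, 81.4 and 72.6 CPM in untreated libraries, 36.4, 24.5 and 32.6 CPM with cisplatin, and in the drug conditions 43.5, 55.3 and 55.1 CPM (Tranilast), 35.2, 28.2 and 44.0 CPM (Telmisartan) and 37.0, 32.9 and 25.3 CPM (Amphotericin B). ZEB1 was thus lower in the same libraries in which CDH1 was higher, and the Tranilast libraries lay between the untreated and the cisplatin ones without touching either. The log2 fold change with cisplatin alone was -1.27 (standard error 0.212). ZEB1 rose with Tranilast over cisplatin alone by 0.72 (standard error 0.213, adjusted p = 0.0222), where 22.2% of genes passed the threshold. That call was lost without cisplatin library 2 or Tranilast library 2 or 3 (adjusted p from 0.0827 to 0.107), with a fit of the 6 libraries alone (adjusted p = 0.0537) and with the mitochondrial share as a covariate (0.56, adjusted p = 0.123). ZEB1 was also higher with Tranilast than with Amphotericin B, by 0.70 (standard error 0.221, adjusted p = 0.0213), a call lost without Tranilast library 2 or 3 or Amphotericin B library 3 (adjusted p from 0.0663 to 0.116). Over Telmisartan the Tranilast value was 0.51 (95% interval 0.07 to 0.94, adjusted p = 0.158). Relative to untreated cells ZEB1 fell with Telmisartan (-1.05, adjusted p = 0.00137) and Amphotericin B (-1.24, adjusted p = 0.00041). With the mitochondrial share as a covariate the Amphotericin B value was -0.93 (adjusted p = 0.0922). The Tranilast value of -0.54 did not pass (adjusted p = 0.108), but it passed in 2 of 23 alternatives, the 6 libraries alone and the mitochondrial share as a covariate. ZEB1-AS1, on the opposite strand, had at most 23 reads in a library, and whether the counting used the strand is not given in the sources used here, so reads of the overlap cannot be assigned with certainty.

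ZEB2 and SNAI2 did not pass the filter on low counts. ZEB2 had 3, 8 and 6 reads in untreated libraries, 3, 2 and 1 with cisplatin, 3, 6 and 2 with Tranilast and 2 in each Telmisartan library. Each Amphotericin B library had 6 ZEB2 reads, which in these shallow libraries made 4.27 to 4.81 CPM, above the 0.397 to 2.302 CPM of all other libraries. In a fit without the filter the ZEB2 difference was 2.11 for Amphotericin B over cisplatin alone (standard error 0.836, adjusted p = 0.106) and 1.35 over untreated cells (adjusted p = 0.193), neither past the threshold. SNAI2, which encodes the repressor SLUG, had 0 to 3 reads in every library, so a change in it was not detectable at this depth, where 0 reads allow up to 3 by counting error.

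MAP1B was lower in all cisplatin-treated libraries and differed between the drugs. Untreated libraries had 130.4, 140.1 and 134.4 CPM and cisplatin libraries 21.3, 21.1 and 19.9 CPM, a difference of -2.70 on the log2 scale (standard error 0.228). Tranilast libraries had 44.7, 62.4 and 72.7 CPM, Telmisartan libraries 27.1, 24.9 and 33.9 CPM, and Amphotericin B libraries 26.3, 46.5 and 34.3 CPM. All 9 drug libraries lay above the 3 with cisplatin alone and below the untreated ones. Described without a test, the differences from cisplatin alone on the log2 scale were 1.54 (Tranilast), 0.48 (Telmisartan) and 0.78 (Amphotericin B), and those from untreated cells were -1.17, -2.22 and -1.92. Between drugs MAP1B was higher with Tranilast than with Telmisartan by 1.06 (standard error 0.218, adjusted p = 0.0412), in a comparison where only 2.34% of genes passed, 0.585% higher and 1.75% lower. It was higher with Tranilast than with Amphotericin B by 0.76 (standard error 0.224, adjusted p = 0.0150), although the libraries overlapped at 44.7 and 46.5 CPM. The first call was lost in 14 of 23 alternatives, among them leaving out any untreated, Tranilast or Amphotericin B library or Telmisartan library 1 or 2, at adjusted p from 0.0563 to 0.247, while the value itself stayed between 0.81 and 1.38 in all 23. The second was lost without Tranilast library 3 or Amphotericin B library 1 or 3 (adjusted p from 0.0602 to 0.0775) and with the mitochondrial share as a covariate (0.39, adjusted p = 0.764). Telmisartan and Amphotericin B differed by -0.30 (95% interval -0.79 to 0.19, adjusted p = 0.463).

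SEMA3E, which encodes a secreted semaphorin that signals through plexin D1, was the most abundant guidance cue of the set. It was at 155.6, 159.1 and 155.0 CPM in untreated libraries and at 34.2, 16.7 and 23.8 CPM with cisplatin, a difference of -2.66 on the log2 scale (standard error 0.231). Tranilast libraries had 34.2, 47.7 and 40.2 CPM, Telmisartan libraries 32.7, 32.6 and 33.9 CPM, and Amphotericin B libraries 31.3, 44.9 and 47.7 CPM. Untreated libraries were thus above all cisplatin-treated ones by a wide margin, and the drug conditions sat near each other. Against cisplatin alone SEMA3E was higher on the log2 scale by 0.72 (Tranilast), 0.42 (Telmisartan) and 0.74 (Amphotericin B), and only the Tranilast libraries did not overlap those with cisplatin, by the margin of 34.24 over 34.16 CPM. Between drugs no difference passed, with 0.30 for Tranilast over Telmisartan (95% interval -0.17 to 0.77, adjusted p = 0.439), -0.01 for Tranilast over Amphotericin B (95% interval -0.49 to 0.47, adjusted p = 0.965) and -0.32 for Telmisartan over Amphotericin B (adjusted p = 0.439). Set beside MAP1B, which was near 3 times as abundant with Tranilast (59.9 CPM) as with cisplatin alone (20.7 CPM), SEMA3E went from 24.9 to 40.7 CPM.

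**Figure D4:**
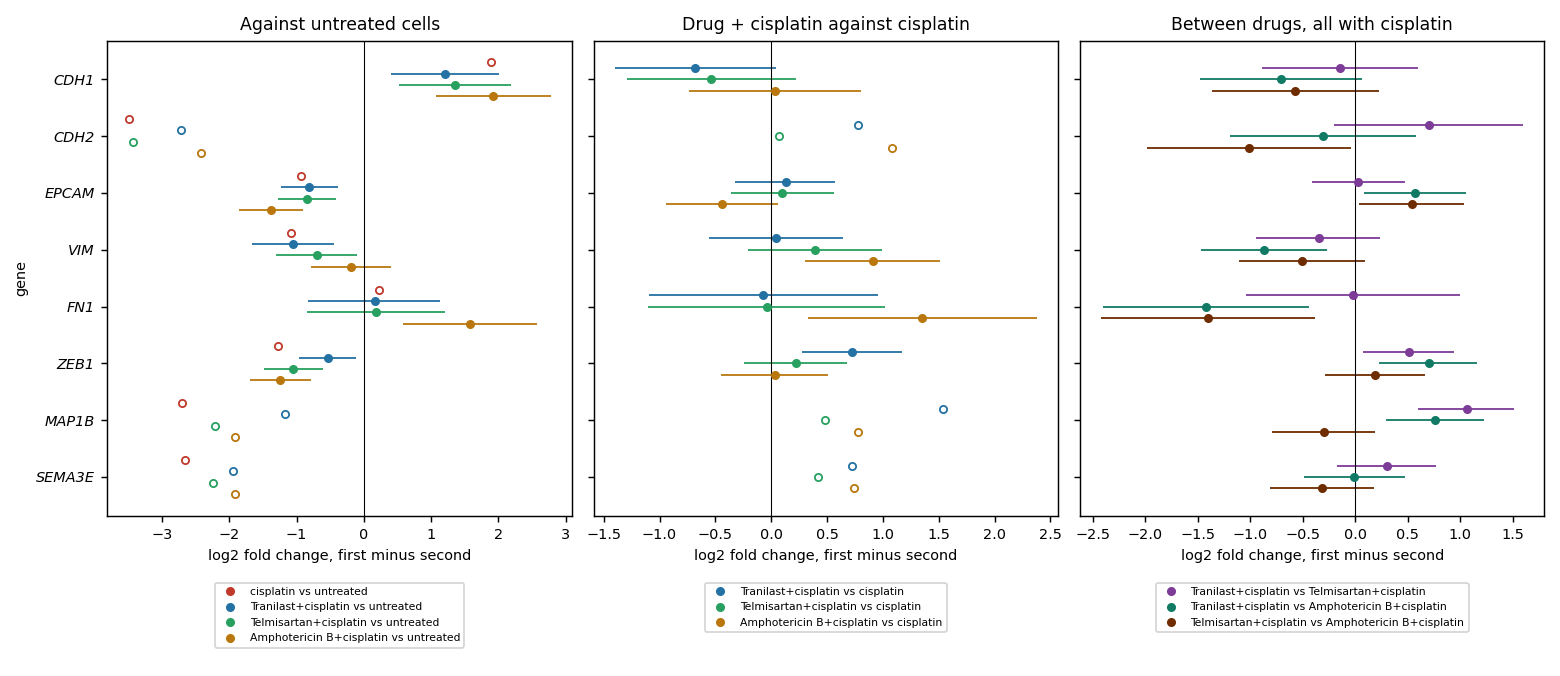
Log2 fold changes of the 8 genes that passed the filter (horizontal axes; the first condition named minus the second), against untreated cells, against cisplatin alone and between drugs. Filled points with 95% intervals were fitted with a test, which for CDH1 against untreated cells is not used because of the filter on low counts, and open points, which share libraries with the choice of the set, are descriptions; MAP1B is higher with Tranilast than with Telmisartan by 1.06 and FN1 and VIM are lower with Tranilast than with Amphotericin B.

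Counted by comparison, members passed against cisplatin alone about as often as all genes. Of the 5 members tested there, 1 passed with Tranilast (ZEB1), where 22.2% of all genes did, 1 with Amphotericin B (VIM), where 13.2% did, and 0 with Telmisartan, where 0 of 11113 genes passed by edgeR, the smallest adjusted p was 0.294, 1150 genes (10.3%) had an unadjusted p under 0.05, and DESeq2 called 55. Without cisplatin library 1 the Telmisartan count was 545 genes, and VIM was then 0.89 higher with Telmisartan (adjusted p = 0.0510). Of the 8 members tested between drugs, 1 passed for Tranilast against Telmisartan, where 2.34% of all genes did, and 4 for Tranilast against Amphotericin B, where 36% did. For Telmisartan against Amphotericin B 0 passed, where again 0 of all genes passed by edgeR, 2283 (20.5%) had an unadjusted p under 0.05 and DESeq2 called 184. Among all genes 9.01% were lower and 4.21% higher with Amphotericin B than with cisplatin alone, and between Tranilast and Amphotericin B 16.4% were lower and 19.7% higher. Against untreated cells 2 members passed with Telmisartan (EPCAM and ZEB1), 2 with Tranilast (EPCAM and VIM) and 3 with Amphotericin B (EPCAM, FN1 and ZEB1), of EPCAM, VIM, FN1 and ZEB1, where 28.7%, 8.1% and 40.9% of all genes passed. The shares of all genes that were lower and higher there were 5.66% and 2.44% (Tranilast), 15.8% and 12.8% (Telmisartan), and 23.3% and 17.6% (Amphotericin B).

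Separation of libraries was common among all genes, which is the background for the statements on overlap above. Against cisplatin alone the libraries did not overlap and were lower for 18.9%, 4.89% and 13.8% of genes with Tranilast, Telmisartan and Amphotericin B, and higher for 21.4%, 4.38% and 10.9%. Against untreated cells the shares were 25.1%, 26.3% and 35.3% lower and 21.1%, 18.4% and 23.4% higher in that order. For Tranilast against Telmisartan they were 10.9% lower and 15.1% higher, for Tranilast against Amphotericin B 23.3% and 31.9%, and for Telmisartan against Amphotericin B 9.86% and 12.5%.

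Most adherens junction genes did not pass the test with cisplatin, and those that did were lower. Among those that did not pass were the catenin genes CTNNB1 (-0.33, adjusted p = 0.130), CTNND1 (-0.02, adjusted p = 0.959) and JUP (-0.18, adjusted p = 0.671). Of 12 adherens junction genes tested, 5 were lower and 0 higher with cisplatin than without it, with a median log2 fold change of -0.30, where 23.6% of all genes were lower, 21.1% higher and the median was -0.01. CTNNA1, encoding the α-catenin that links cadherins to actin, fell by 1.86 on the log2 scale (adjusted p = 6.93e-05), and AFDN, encoding the nectin partner afadin, by 1.52 (adjusted p = 0.000243). Both rose with Tranilast over cisplatin alone, by 1.08 (adjusted p = 0.0118) and 0.79 (adjusted p = 0.0437), the only 2 of the 12 to do so, where 10.5% of all genes rose. The fall and the rise share the cisplatin libraries, which favours opposite directions, here and for genes of the other lists named for both. With Amphotericin B, CTNNA1 and ACTN1 rose by 1.01 and 1.08 (adjusted p = 0.0315 and 0.0173), while the nectin family genes NECTIN2 and PVR fell by 1.0 and 0.88 (adjusted p = 0.0331 and 0.0359).

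Other epithelial genes were lower about as often as all genes. Of 19 tested, 5 were lower and 1 higher with cisplatin, where 23.6% of all genes were lower and 21.1% higher, with a median of -0.51. DSG2, a desmosomal cadherin, fell by 2.46 (adjusted p = 1.17e-05) and CLDN1, a tight junction claudin, by 1.95 (adjusted p = 2.87e-05), whereas KRT18, a keratin of simple epithelia, rose by 0.64 (adjusted p = 0.0135). The higher level of CDH1 therefore stood beside lower levels of EPCAM, DSG2 and CLDN1 and a higher level of KRT18, while 13 of the 19 genes did not pass. With Tranilast over cisplatin alone 3 of the 19 rose, where 10.5% of all genes did, among them CLDN1 (1.04, adjusted p = 0.00997) and TJP1 (0.98, adjusted p = 0.0108). With Amphotericin B 0 rose and 1 fell, where 4.21% of all genes rose and 9.01% fell, the junctional molecule F11R (-1.30, adjusted p = 0.0165).

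Of 20 mesenchymal and matrix genes tested, 10 were lower and 4 higher with cisplatin, where 23.6% of all genes were lower and 21.1% higher, and the median was -1.0. COL5A2, a fibrillar collagen, fell by 3.13 (adjusted p = 1.32e-05) and LAMC1, a laminin chain, by 2.50 (adjusted p = 1.74e-05). COL1A1 rose by 1.55 (adjusted p = 0.00218) and the proteoglycan gene SDC1 by 1.05 (adjusted p = 0.00534). With Tranilast over cisplatin alone COL5A2 and the fibronectin receptor subunit ITGA5 rose, by 1.18 (adjusted p = 0.0311) and 1.21 (adjusted p = 0.0258), and 0 of the 20 fell, where 10.5% of all genes rose and 11.6% fell. With Amphotericin B FBLN1, a matrix protein gene, rose by 1.55 (adjusted p = 0.0381) and SDC1 fell by 1.16 (adjusted p = 0.0175), with a list median of 0.63 against -0.04 for all genes. The lists were counted again without cisplatin library 1 only. They were not counted without any other library, such as Telmisartan library 3. Then 6 of 22 genes tested rose with Tranilast and 11 of 22 with Amphotericin B, where 12.6% and 16.6% of all genes rose. Without that library 5 of 12 adherens junction genes rose with Tranilast, where 12.6% of all genes rose. With Telmisartan 3 of these 12 rose, where 2.66% of all genes rose and 2.15% fell. Of mesenchymal and matrix genes 2 of 22 rose and 1 fell with Telmisartan, of microtubule-associated genes 2 of 20 rose and 1 fell, and 1 of 10 regulators of the transition fell. When the library was included, no gene of the 7 lists passed with Telmisartan. With Amphotericin B 4 of the 10 regulators rose, where 16.6% of all genes did.

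Among 10 regulators of the transition other than the ZEB and SNAI2 genes, 2 fell and 1 rose with cisplatin, no more than the 23.6% and 21.1% of all genes. TCF4, an E-box binding factor, fell by 1.45 (adjusted p = 2.54e-05), the corepressor CTBP2 fell by 0.65 (adjusted p = 0.0308), and SOX4 rose by 1.1 (adjusted p = 0.00106). TCF4, like ZEB1, rose with Tranilast over cisplatin alone by 0.78 (adjusted p = 0.00981) and remained below untreated cells with Tranilast (-0.68, adjusted p = 0.0298), Telmisartan (-1.13, adjusted p = 0.000372) and Amphotericin B (-1.0, adjusted p = 0.000787). With Amphotericin B over cisplatin alone SOX4 fell by 1.09 (adjusted p = 0.00893) and HDAC1 rose by 0.50 (adjusted p = 0.0460).

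SEMA3E was accompanied by some other class 3 semaphorins but not by SEMA3B, which did not pass with cisplatin (-0.29, adjusted p = 0.524). Of 16 semaphorin and receptor genes tested besides it, 8 were lower and 0 higher with cisplatin, where 23.6% of all genes were lower and 21.1% higher, with a median of -0.80. SEMA3A fell by 3.15 (adjusted p = 1.17e-05) and SEMA3D by 2.17 (adjusted p = 1.32e-05). Both stayed low with every drug, at -2.92, -3.96 and -2.78 for SEMA3A and -1.63, -1.89 and -2.27 for SEMA3D relative to untreated cells with Tranilast, Telmisartan and Amphotericin B (adjusted p at most 0.000613). None of the 16 passed against cisplatin alone with any drug. Without cisplatin library 1, of 17 tested, 1 rose with Tranilast and 2 with Amphotericin B, where 12.6% and 16.6% of all genes rose. Among 16 other guidance genes 8 fell and 1 rose with cisplatin, against the same shares of all genes. The 1 that rose was EFNB1, and the 8 include EFNA5, UNC5B and EPHA2, at 1.18, 0.669 and 1.60 CPM with cisplatin. Such genes were too low in 1 of the conditions to pass the filter by themselves, so nothing is read from these counts. The ROBO ligand gene SLIT2 fell by 2.21 (adjusted p = 1.32e-05) while NEO1, encoding the receptor neogenin, fell by 2.67 (adjusted p = 0.00063). EFNB1, an ephrin gene, was 1.61 higher, at 9.63 CPM against 3.17 CPM in untreated cells. That untreated level was too low to pass the filter by itself, so no p is given. SLIT2 rose with Tranilast over cisplatin alone, by 1.04 (adjusted p = 0.0128). With Amphotericin B RGMB fell by 1.01 (adjusted p = 0.0414). EFNA5, which encodes an ephrin, was at only 1.18 CPM with cisplatin alone, against 4.83 CPM with Tranilast and 5.64 CPM with Amphotericin B. These are log2 differences of 2.07 and 2.27. It passed the filter on low counts only through conditions where it was higher, so no p is given.

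Microtubule-associated protein genes other than MAP1B moved in both directions. Of 18 tested, 9 were lower and 4 higher with cisplatin, where 23.6% of all genes were lower and 21.1% higher, with a median of -1.02. The 9 include CLASP1, MTUS1 and MAPRE3, at 2.09, 2.12 and 1.41 CPM with cisplatin alone, too low there to pass the filter by themselves. CLASP2, which encodes a protein of growing microtubule ends, fell by 2.19 (adjusted p = 3.19e-05) and the dynein regulator gene PAFAH1B1 by 1.28 (adjusted p = 4.77e-05), while MAP1S, a relative of MAP1B, rose by 1.80 (adjusted p = 0.000134) and STMN1, encoding a microtubule destabiliser, by 1.06 (adjusted p = 0.000231). With Tranilast over cisplatin alone 7 of the 18 rose and 2 fell, where 10.5% of all genes rose and 11.6% fell. CLASP1, MTUS1 and MAPRE3 are again among the 7. Of genes spanning over 100 kb 32.7% rose there, and the list was not compared with genes of like span. Without cisplatin library 1 the count was 8 higher and 1 lower of 20, where 12.6% of all genes were higher and 10.8% lower. The directions were opposite to those of cisplatin for CLASP2 (1.84, adjusted p = 0.00163), PAFAH1B1 (1.06, adjusted p = 0.00197), MAP1S (-1.17, adjusted p = 0.00867) and STMN1 (-0.60, adjusted p = 0.0267), in comparisons that share the cisplatin libraries. PAFAH1B1 was, with MAP1B, higher with Tranilast than with Telmisartan (0.72, adjusted p = 0.0462), and it was the only 1 of the 18 that passed there. With Amphotericin B over cisplatin alone MAP1S fell by 1.14 (adjusted p = 0.0230). CLASP1 was 1.85 higher there, at 7.56 CPM against 2.09 CPM. The level with cisplatin alone was too low to pass the filter by itself, so no p is given.

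**Figure D5:**
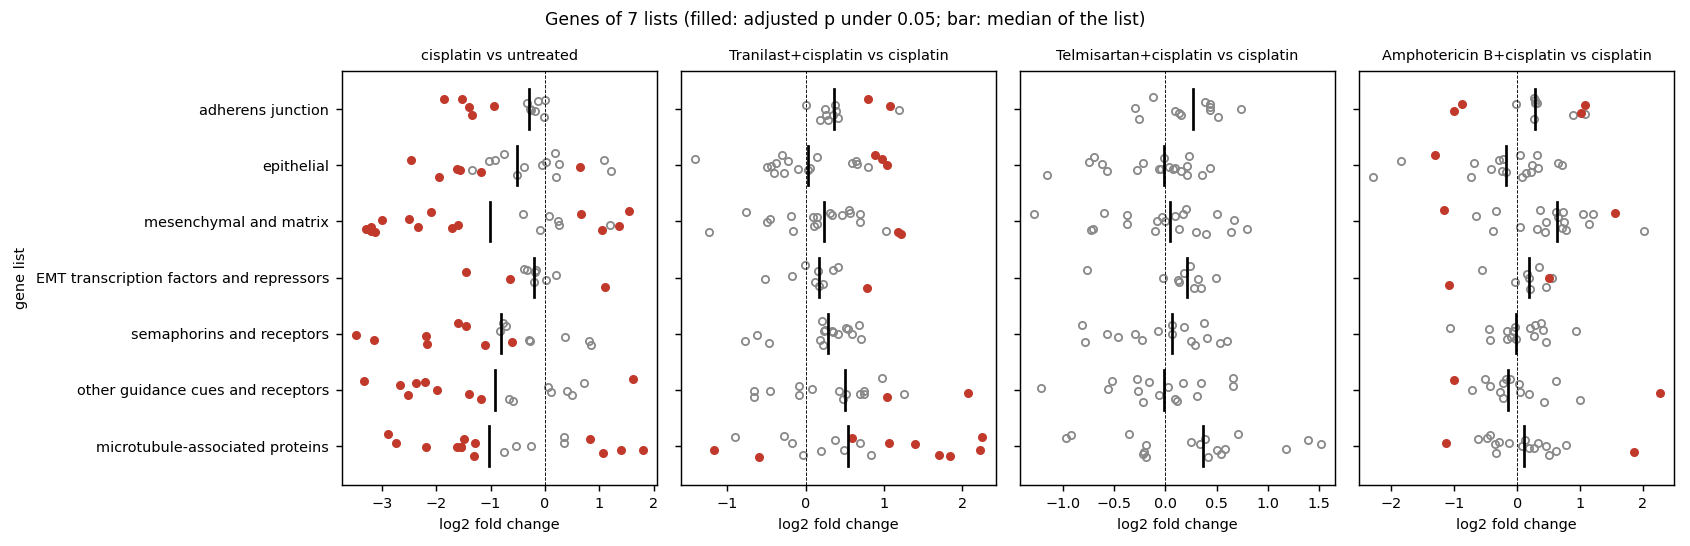
Log2 fold changes (horizontal axes) of the genes of 7 lists that passed the filter, for cisplatin against untreated cells and for each drug with cisplatin against cisplatin alone; filled points passed an adjusted p of 0.05 and a bar marks the median of the list. With cisplatin all 7 medians are below 0, from -0.20 to -1.02, and with Telmisartan no point is filled.

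The genes that chose the set are long, a property that the choice did not use. By GENCODE 29 on GRCh38 SEMA3E spans 285.9 kb, CDH2 226.5 kb, ZEB1 211.3 kb, ZEB2 160.2 kb and MAP1B 102.3 kb, while CDH1 spans 98.3 kb, FN1 75.7 kb, EPCAM 42.4 kb, VIM 9.3 kb and SNAI2 4.1 kb. Across all genes tested the change with cisplatin followed span. Genes over 100 kb had a median of -1.25 (quartiles -1.88 and -0.68, 1842 genes), and 67.6% of them were lower and 1.95% higher. Genes of 30 to 100 kb had a median of -0.26 (3581 genes) and shorter genes one of 0.45 (5541 genes). SEMA3E at -2.66, CDH2 at -3.50 and MAP1B at -2.70 were below the lower quartile of the genes over 100 kb, and ZEB1 at -1.27 was at their median. CDH2, MAP1B and SEMA3E were chosen for a fall with cisplatin, which favours such a place, so nothing is read from it. Genes over 200 kb had a median of -1.73 (lower quartile -2.31, 640 genes). CDH1 at 1.89 lay above the upper quartile of its class, 0.20, and VIM at -1.09 and EPCAM at -0.94 lay below the lower quartiles of theirs, -0.07 and -0.74. With Tranilast over cisplatin alone genes over 100 kb had a median of 0.69 (quartiles 0.22 and 1.09) and 32.7% rose. ZEB1 and SEMA3E at 0.72 and CDH2 at 0.78 were near that median and MAP1B at 1.54 was above the upper quartile. The cisplatin libraries that chose CDH2, MAP1B and SEMA3E enter this comparison too, so their place is only a description. With Telmisartan and Amphotericin B the medians of genes over 100 kb were 0.34 and 0.46. The gene lists above were set beside all genes and not beside genes of like span. A share above that of all genes is therefore not read as particular to a list.

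The genes most like 4 of the members in their pattern over the 15 libraries were listed by Pearson's r of log2 CPM, as a description in which the separation of untreated from treated libraries weighs heavily. For CDH2 they were MMP3 (r = 0.988), a matrix metalloproteinase gene, ALCAM (0.981), an adhesion molecule gene, and POSTN (0.980), the gene of the matrix protein periostin. For MAP1B they were ISL1 (0.980), ADGRE5 (0.980) and PLOD1 (0.978), and for SEMA3E GLG1 (0.972), NUP210 (0.967) and CPD (0.964). For CDH1 they were PLPPR2 (0.919), FTL (0.914), which encodes ferritin light chain, and YDJC (0.911). MMP3, ISL1, ADGRE5, POSTN and PLOD1 span 8.003 to 41.33 kb, whereas ALCAM, GLG1, NUP210 and CPD span 210.0, 159.7, 104.1 and 91.08 kb. The closest patterns to CDH2, MAP1B and SEMA3E thus included short and long genes. All of these genes fell with cisplatin, by 1.28 to 3.29 on the log2 scale. Likeness to members chosen for a fall favours this, so nothing is read from it.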

How the data were processed

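The authors made QuantSeq 3′ libraries from 100 ng of RNA and sequenced them as single 75 bp reads. Per the labels and the submitters' processing notes, reads were aligned to hg19 with STAR 2.3.0 and counted with HTSeq; the gene annotation and the use of the strand are not given in the sources used here. The deposited files hold raw read counts per Ensembl gene, 1 file of 47634 genes per library and 15 files in all, without normalization; 45776 identifiers had a name and span in GENCODE 29. Columns holding samples of no use here numbered 0.

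Counts were tested with edgeR 4.0.16 (R 4.3.3). All 15 libraries were fitted together with TMM scaling after filterByExpr, which kept 11113 genes, and the quasi-likelihood F test was run for 10 comparisons, each with Benjamini-Hochberg adjustment over all genes tested. An adjusted p under 0.05 is a call. On simulated counts with 200 changed genes for Tranilast against cisplatin, 195 were called with the right sign and 10 of the unchanged genes were called, among 10839 genes. The changes put in were large and only in genes with ample reads, and no library stood apart from its condition. The simulation therefore checks the code and does not give the power or the error for sparse genes, smaller changes or the outlying libraries here. Depth was 1510620 to 3517041 reads, and intervals cover the fit, or for 0 reads counting error only.

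The members, gene lists and tests were chosen with earlier results of these data known. Members were named in full; for each list up to 2 genes in each direction with the smallest adjusted p were named, and for CDH1, CDH2, MAP1B and SEMA3E the 3 genes with the highest correlation among genes of mean log2 CPM of at least 3. The catenin genes CTNNB1, CTNND1 and JUP were named in addition, as were SEMA3B, UNC5B, EPHA2, MTUS1 and MAPRE3. CD24 and PECAM1 of the lists were not matched. CDH2, MAP1B and SEMA3E were not tested in comparisons with untreated or cisplatin libraries, and no p is given for CDH1 against untreated cells, since it passed the filter only through treated libraries. For EFNA5, EFNB1 and CLASP1 of the lists no p is given either, because the lower condition was too low to pass the filter by itself. The counts of all lists include such genes, so they describe the lists and are no fair test of them. The planned alignment of the CDH1 and CDH2 proteins was not made. Alternatives were RLE factors, library size alone, no filter beyond 1 count, DESeq2 1.42.0, the edgeR likelihood ratio test, the 6 libraries of a comparison alone, a replicate block, each library left out, other pseudocounts and span limits, and, added after the data were seen, the mitochondrial share as a covariate and the gene lists without cisplatin library 1.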

Additional observations from a re-analysis of the deposited data

How the results depend on the processing

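Counts of genes past the threshold moved by more than 1.5 times in 6 comparisons under other settings, and in Tranilast against cisplatin (2462) and Telmisartan against untreated cells (3184) when 1 library was left out, and the cause was not tested. Tranilast against untreated cells (900 genes) gave 572 with library size alone, 1394 with the likelihood ratio test and 3988 with its 6 libraries alone. Tranilast against Telmisartan (260) gave 1 with library size alone, 1008 without the filter, 1074 with DESeq2, 1040 with the likelihood ratio test, 443 with the replicate block and 0 with its 6 libraries. Tranilast against Amphotericin B (4003) gave 6076 with library size alone, and Amphotericin B against cisplatin (1469) gave 89 with its 6 libraries. Telmisartan against cisplatin (0) gave 2 without the filter, 55 with DESeq2 and 24 with the likelihood ratio test, and Telmisartan against Amphotericin B (0) gave 856, 184 and 460 in the same order and 1 with the replicate block. Leaving out 1 library gave 1094 (without Tranilast library 3) to 3269 genes for Tranilast against cisplatin, 0 to 545 (without cisplatin library 1) for Telmisartan against cisplatin, 209 (without cisplatin library 2) to 3834 (without cisplatin library 1) for Amphotericin B against cisplatin, 289 (without Tranilast library 1) to 1601 (without cisplatin library 1), 1982 (without untreated library 3) to 4182 and 3554 to 5230 for Tranilast, Telmisartan and Amphotericin B against untreated cells, 3607 to 5587 for cisplatin against untreated cells, and between drugs 0 (without Telmisartan library 1) to 2760 (without Telmisartan library 3) for Tranilast against Telmisartan, 2700 to 4724 for Tranilast against Amphotericin B and 0 to 665 (without cisplatin library 1) for Telmisartan against Amphotericin B.

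Small differences of members turned in sign, and the cause was not tested. RLE factors gave -0.03 for VIM (Tranilast over cisplatin) and -0.02 for EPCAM (Tranilast over Telmisartan), DESeq2 gave -0.03 for both, and a fit of 6 libraries gave -0.04 for the latter. Library size alone gave FN1 -0.17 (cisplatin over untreated), 0.42 and 0.06 (Tranilast and Telmisartan over cisplatin), -0.11 (Telmisartan over untreated) and 0.37 (Tranilast over Telmisartan), CDH1 and ZEB1 -0.17 each (Amphotericin B over cisplatin), CDH1 0.22 and VIM 0.07 (Tranilast over Telmisartan), CDH2 0.35 and SEMA3E 0.64 (Tranilast over Amphotericin B, the latter with adjusted p = 0.0433), and MAP1B 0.03 (Telmisartan over Amphotericin B). No filter gave FN1 0.01 (Telmisartan over cisplatin), CDH1 -0.03 and ZEB1 -0.04 (Amphotericin B over cisplatin) and SEMA3E 0.11 (Tranilast over Amphotericin B).

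Replicate numbers did not pair the libraries: deviations of the same number correlated at a mean r of 0.02 (range -0.235 to 0.631 over 30 pairs) and those of different numbers at -0.0115. The replicate block turned FN1 to 0.03 (Tranilast over cisplatin) and 0.09 (Tranilast over Telmisartan).

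With the mitochondrial share as a covariate FN1 turned to -0.72 (cisplatin over untreated), 0.80 (Tranilast over cisplatin), -0.93 (Telmisartan over untreated) and 1.01 (Tranilast over Telmisartan), CDH2 to -0.07 (Telmisartan over cisplatin) and 2.03 (Tranilast over Amphotericin B), CDH1 to -0.27 (Amphotericin B over cisplatin) and 0.33 (Tranilast over Telmisartan), VIM to 0.62 (Tranilast over Telmisartan) and 0.43 (Tranilast over Amphotericin B), and SEMA3E to 0.27 (Tranilast over Amphotericin B).

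Leaving out 1 library gave ranges across 0 for CDH1 (-0.15 to 0.15 Amphotericin B over cisplatin, -0.37 to 0.11 Tranilast over Telmisartan), CDH2 (-0.36 to 1.1 Telmisartan over cisplatin), EPCAM (-0.06 to 0.12 Tranilast over Telmisartan), FN1 (-1.04 to 0.54 and -0.52 to 0.50 Telmisartan and Tranilast over cisplatin, -0.83 to 0.57 and -0.34 to 0.68 Telmisartan and cisplatin over untreated, -0.40 to 0.99 Tranilast over Telmisartan), SEMA3E (-0.17 to 0.10 Tranilast over Amphotericin B), VIM (-0.20 to 0.51 Tranilast over cisplatin) and ZEB1 (-0.11 to 0.20 Amphotericin B over cisplatin). The CDH1 values rest on 24 to 57 reads per condition, which limits them.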
